A study of Mus musculus with 12 samples.

Results

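The blood vessels of gonadal white adipose tissue (GWAT) were examined through 10 genes of endothelial cells and of the signals that act on them. They comprise the endothelial surface genes Pecam1, Cdh5 and Cd300lg, the receptors Kdr, Flt1 and Tek, and the ligands Vegfa, Vegfb, Angpt1 and Angpt2. They were chosen by symbol from a table of 55281 genes, and all 10 were found there and passed the filter on low counts that left 18427 genes for testing.

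GWAT was taken from WT and HoipA-KO male mice after 16 weeks on control diet (CD, 14% fat) or high-fat diet (HFD, 60% fat), started at 6 weeks of age, and the mice were 22 to 24 weeks old. Both genotypes carried Hoip fl/fl alleles of Rnf31, the gene that encodes HOIP, the catalytic subunit of the linear ubiquitin chain assembly complex. HoipA-KO mice also carried AdipoQ.Cre, a Cre recombinase under the adiponectin promoter, and the WT mice were littermates without Cre. The 4 groups, WT CD, WT HFD, HoipA-KO CD and HoipA-KO HFD, had 3 bulk RNA sequencing libraries each, and each library was a pool of 3 mice. Cre acts in mature adipocytes in this model, so that endothelial cells keep Hoip, and values below are of RNA of the whole tissue.

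Adipose tissue is densely supplied with capillaries, and adipocytes are a main source of VEGF-A in it. VEGF-A acts mainly through the receptor VEGFR2 (Kdr), whereas VEGFR1 (Flt1) binds VEGF-A and VEGF-B and can hold VEGF-A away from VEGFR2. The angiopoietins act on the receptor TIE2 (Tek), which angiopoietin 1 activates to keep vessels quiescent and which angiopoietin 2, released by endothelial cells, can block or activate depending on context.

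Reference sequence upstream of the transcription start is shown for the VEGF ligands and their 2 receptors, which moved together between the genotypes below, and for Tek. Each line gives the 250 bases before the start from RefSeq (GRCm38.p6), 5′ to 3′ on the gene's strand, with every GC box in capitals, that is, GGGCGG or its reverse complement.
Vegfa (chr17:46032378-46032627, minus strand): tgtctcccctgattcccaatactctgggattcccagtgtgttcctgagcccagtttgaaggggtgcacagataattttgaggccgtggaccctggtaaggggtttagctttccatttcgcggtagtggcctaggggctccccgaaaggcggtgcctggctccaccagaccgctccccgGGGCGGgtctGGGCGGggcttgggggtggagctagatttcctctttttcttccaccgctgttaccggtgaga
Vegfb (chr19:6987652-6987901, minus strand): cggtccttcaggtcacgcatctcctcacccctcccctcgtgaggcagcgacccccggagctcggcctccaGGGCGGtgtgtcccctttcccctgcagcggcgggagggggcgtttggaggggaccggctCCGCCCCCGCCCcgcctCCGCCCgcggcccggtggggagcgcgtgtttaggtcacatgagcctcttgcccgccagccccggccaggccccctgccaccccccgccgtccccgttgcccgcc
Kdr (chr5:75978456-75978705, minus strand): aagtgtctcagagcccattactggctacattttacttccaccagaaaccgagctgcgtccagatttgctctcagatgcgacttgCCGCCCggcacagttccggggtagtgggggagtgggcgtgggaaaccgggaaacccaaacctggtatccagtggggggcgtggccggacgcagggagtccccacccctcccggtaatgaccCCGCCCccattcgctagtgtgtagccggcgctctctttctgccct
Flt1 (chr5:147726012-147726261, minus strand): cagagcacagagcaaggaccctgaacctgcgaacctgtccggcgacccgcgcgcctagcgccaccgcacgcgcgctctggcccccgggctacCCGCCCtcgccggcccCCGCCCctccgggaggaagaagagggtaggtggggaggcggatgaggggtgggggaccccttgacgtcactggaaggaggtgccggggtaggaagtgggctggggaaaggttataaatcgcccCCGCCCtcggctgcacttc
Tek (chr4:94739039-94739288, plus strand): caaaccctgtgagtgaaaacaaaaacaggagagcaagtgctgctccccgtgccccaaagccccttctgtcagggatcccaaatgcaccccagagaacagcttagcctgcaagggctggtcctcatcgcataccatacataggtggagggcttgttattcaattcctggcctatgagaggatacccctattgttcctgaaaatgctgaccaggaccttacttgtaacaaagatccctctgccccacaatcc
The GC box was present 2 times upstream of Vegfa, 4 times upstream of Vegfb, 2 times upstream of Kdr and 3 times upstream of Flt1. It was not present in the window of Tek. Of 32851 upstream windows of this length in the same table, 32.7% held at least 1 GC box on either strand. The ETS core GGAA, on either strand, was in all 5 windows shown and in 93.4% of all windows. The core of the hypoxia response element, ACGTG or GCGTG on either strand, was found in the windows of Vegfb, Kdr and Flt1 and not in those shown for Vegfa and Tek, against 38.6% of all windows. The table held another Vegfa window, before a start inside the gene (chr17:46025164-46025413), which is not shown and had 2 hypoxia cores and 1 GC box. A match describes the letters of the window and not a site in use. Windows were given for 5 of the 10 genes, not for Pecam1, Cdh5, Cd300lg, Angpt1 and Angpt2.

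Between 30513500 and 60540260 counts per library lay on genes. Rnf31 ranged from 12.8 to 21.2 CPM (counts scaled to a common library size) in WT CD, from 18.2 to 20.0 in WT HFD, from 17.8 to 21.8 in HoipA-KO CD and from 18.8 to 22.5 in HoipA-KO HFD, so that the genotype of a library could not be read from it. Marker genes of neighbouring tissues were high in some libraries. The 8 testis germ cell genes summed to 10840 CPM in WT CD replicate 3, to 445 in replicate 2 and to 19.2 in replicate 1, and to at most 3.50 in the other groups. The 10 epididymis genes summed to 14990 CPM in WT CD replicate 2, 103 in replicate 3 and 1.24 in replicate 1, to 198 in HoipA-KO HFD replicate 3, to 86.6 in HoipA-KO CD replicate 3, to at most 13.9 in 6 others and to 1312 in HoipA-KO HFD replicate 1, where the mural cell genes also summed to 3466 against at most 1073 elsewhere. WT CD replicate 3 is left out of the comparisons that the authors deposited, and the fits below use the other 11 libraries. What changed over all 12 is given beside the counts.

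**Figure D1:**
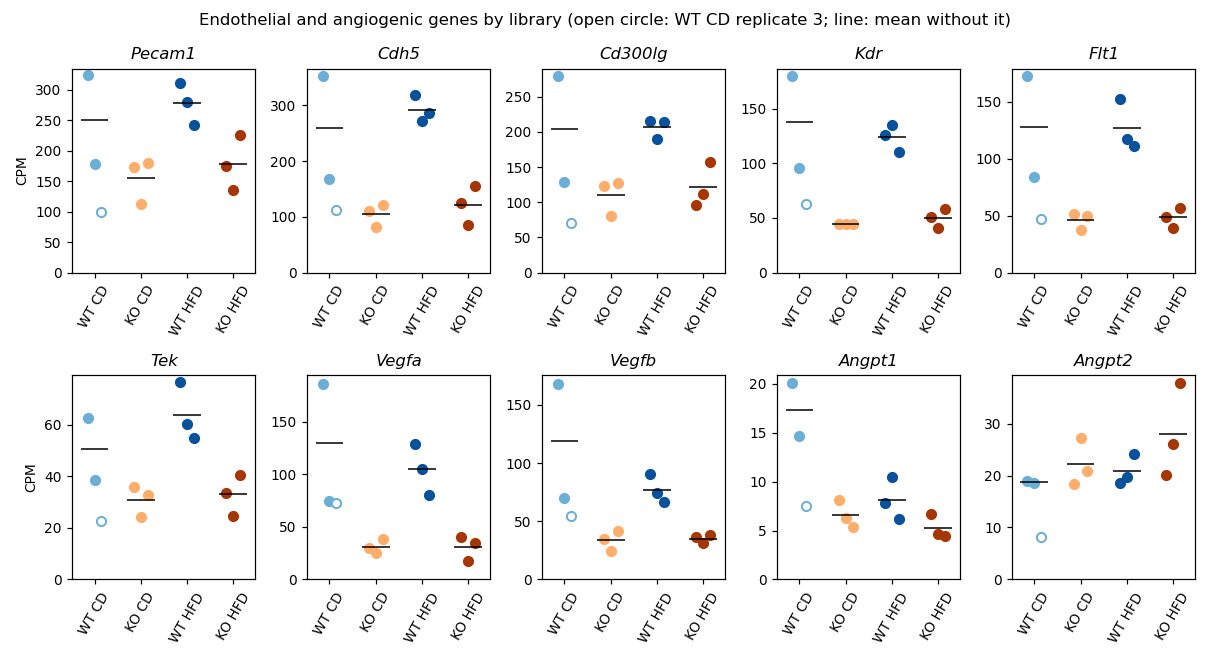
Level of each of the 10 genes (y axis, CPM, from 0) in each of the 12 libraries, by group (x axis). Points are libraries, the open circle is WT CD replicate 3, and lines are group means without it. In 8 of the 10 genes every HoipA-KO HFD library lies below every WT HFD library, whereas Angpt2 does not follow this pattern.

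The 10 genes were expressed at very different levels, which can be compared between genes only per length, as CPM per kilobase of exon. In WT HFD, Cd300lg (75.5 ± 5.34, SD, n = 3 pools) and Cdh5 (69.4 ± 5.64) were the most abundant and differed by about their spread. Vegfb (48.0 ± 7.53) and Pecam1 (44.7 ± 5.58) followed and lay within their spread of each other, though Vegfb was above Pecam1 in 6 of 6 WT libraries. Vegfa (24.5 ± 5.64) came next, and then Kdr (13.7 ± 1.36) and Tek (13.6 ± 2.38), which did not differ beyond their spread. Flt1 (9.41 ± 1.64) and Angpt2 (5.65 ± 0.813) were lower, and Angpt1 (1.57 ± 0.422) was the lowest.

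The order was different in HoipA-KO. In HoipA-KO CD, Cd300lg (40.1 ± 9.51 CPM per kilobase, n = 3 pools) stood above Pecam1 (24.9 ± 5.99), Cdh5 (24.9 ± 5.04) and Vegfb (21.0 ± 5.37), which overlapped each other. Vegfa (7.29 ± 1.62), Tek (6.58 ± 1.26), Angpt2 (6.00 ± 1.22) and Kdr (4.89 ± 0.0156) came next and overlapped in part, above Flt1 (3.42 ± 0.589) and Angpt1 (1.26 ± 0.267). Angpt2 was below Kdr in 6 of 6 WT libraries and above it in 5 of 6 HoipA-KO libraries, and below Flt1 in 6 of 6 WT libraries and above it in 6 of 6 HoipA-KO libraries. Pecam1 was below Vegfb in all 6 WT libraries and above it in all 6 HoipA-KO libraries.

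To ask how the loss of HOIP in adipocytes bears on these genes, HoipA-KO was compared with WT on each diet. On CD, 6 of the 10 genes were lower in HoipA-KO at an adjusted p under 0.05 and none was higher (quasi-likelihood test of edgeR, p-values adjusted after Benjamini and Hochberg across the 18427 genes), where 18.8% of all genes tested were called lower and 18.9% higher. In the HFD comparison 6 of the 10 were likewise called lower and none higher, where 7.62% of genes were called lower and 4.2% higher. Of all 2179 genes called on HFD, 1405 were lower, against 1133 of 2412 with library size alone in place of TMM normalization, where 4 of the 10 genes were called. Cdh5, Kdr, Flt1, Vegfa and Vegfb were called on both diets, Angpt1 on CD only, Tek on HFD only, and Pecam1, Cd300lg and Angpt2 on neither. The median log2 fold change of the 10 genes was -1.32 on CD and -1.03 on HFD, against -0.06 and 0.06 over all genes tested. In bulk RNA, fewer cells that express a gene, less of its RNA per cell and more RNA of other cell types cannot be told apart.

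On CD, every HoipA-KO library lay below both WT libraries in 8 of the 10 genes, and 27.4% of all genes tested were separated in this way. With WT CD replicate 3 this held for 3 genes, Kdr, Vegfa and Vegfb, since that library had the lowest value of its group in all 10 genes. On HFD, where the groups have 3 libraries each, it held for 8 of the 10 genes and for 23.7% of all genes. Over all 12 libraries 5 of the 10 genes were called on CD, Cdh5 no longer among them, and 0 on HFD, where the adjusted p ran from 0.0543 to 0.51 by edgeR and all 10 log2 fold changes kept their sign. At an unadjusted p under 0.05, 9 of the 10 genes passed on HFD over 11 libraries. The count on HFD was also 0 without WT HFD replicate 1, WT HFD replicate 2 or HoipA-KO HFD replicate 2, and 3 when HoipA-KO CD replicate 1, HoipA-KO HFD replicate 1 or HoipA-KO HFD replicate 3 was left out. On CD it was 9 without WT CD replicate 2, all but Angpt2, and 5 without WT CD replicate 1. DESeq2's Wald test, over the same 11 libraries, called 8 of them for CD and 6 for HFD.

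**Figure D2:**
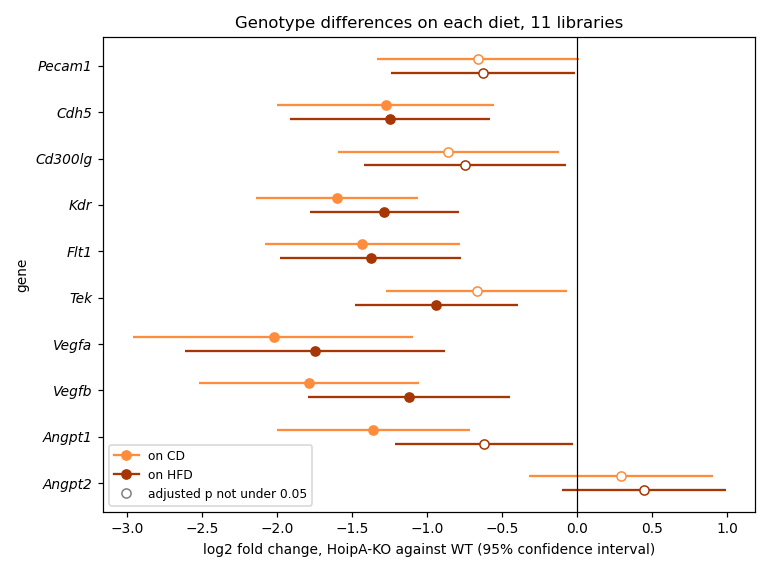
Log2 fold change of HoipA-KO against WT (x axis) for each gene (y axis) on CD and HFD, fitted over 11 libraries with edgeR. Points are estimates, bars are 95% confidence intervals, and filled points have an adjusted p under 0.05. Vegfa has the lowest estimate on both diets and Angpt2 is the only gene with estimates above 0.

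Among the endothelial surface genes, Cdh5 differed between the genotypes on both diets. Cdh5 (chromosome 8, 104101625 to 104144511, plus strand, GRCm38) encodes VE-cadherin, the adhesion molecule of endothelial cell junctions. Its level was 352, 167 and 112 CPM in the WT CD pools, in the order of their numbers, and 111, 80.9 and 122 in HoipA-KO CD. In the HFD groups it had 318, 272 and 286 CPM in WT and 125, 85.8 and 155 in HoipA-KO. The HFD groups did not overlap, and on CD WT replicate 3 lay within the HoipA-KO range. The log2 fold change of Cdh5 was -1.27 ± 0.32 (SE) for CD (adjusted p = 0.0132) and -1.25 ± 0.30 for HFD (adjusted p = 0.0306). The HFD call was lost over 12 libraries (adjusted p = 0.0964 by edgeR) and in 5 of 11 cases when 1 library was left out. The CD value depended on WT CD replicate 1, without which it was -0.64 (adjusted p = 0.131), and it was -1.01 over 12 libraries (adjusted p = 0.0612).

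Pecam1 (chromosome 11, 106654217 to 106750628, minus strand) encodes CD31, an adhesion molecule of endothelial cells that platelets and leukocytes also carry. It had 324, 178 and 99.8 CPM in WT CD and 174, 112 and 179 in HoipA-KO CD, and the groups overlapped. For HFD the values were 312, 280 and 243 CPM in WT and 175, 136 and 225 in HoipA-KO, without overlap. Its log2 fold change was -0.66 on CD (95% confidence interval -1.33 to 0.017, adjusted p = 0.111) and -0.62 on HFD (-1.24 to -0.013, adjusted p = 0.151), and neither passed the threshold. Without WT CD replicate 2, the library with the high epididymis sum, the CD value was -1.02 and passed it, and without replicate 1 it was -0.17.

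Cd300lg (chromosome 11, 102041509 to 102055620, plus strand) encodes nepmucin, a surface protein of capillary and venular endothelium. It had 280, 129 and 70.3 CPM in WT CD and 122, 80.0 and 127 in HoipA-KO CD, so that WT CD replicate 2 was just above the HoipA-KO range and replicate 3 was below it. The HFD pools had 216, 190 and 215 CPM in WT and 96.3, 112 and 158 in HoipA-KO, without overlap. Its log2 fold change was -0.86 on CD (-1.59 to -0.12, adjusted p = 0.065) and -0.74 on HFD (-1.42 to -0.072, adjusted p = 0.124). The CD value was -0.19 when WT CD replicate 1 was left out and -1.31, past the threshold, when replicate 2 was. It also passed without HoipA-KO HFD replicate 1 or 3, with at least 10 counts in every library, with protein-coding genes only, with the replicate block and with DESeq2's Wald test (adjusted p from 0.0232 to 0.0448).

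Both VEGF receptors were lower in HoipA-KO on both diets. Kdr (chromosome 5, 75932827 to 75978458, minus strand) had 180, 95.6 and 63.0 CPM in WT CD and 44.1, 44.3 and 44.0 in HoipA-KO CD. Under HFD it had 126, 135 and 111 CPM in WT and 51.0, 41.1 and 58.6 in HoipA-KO. No HoipA-KO library reached the lowest WT library on either diet, WT CD replicate 3 included. Kdr was thus 0.33 times as high in HoipA-KO CD as in WT CD, a log2 fold change of -1.6 ± 0.24 (SE, adjusted p = 0.00117), and its value in the HFD comparison was -1.29 ± 0.22 (adjusted p = 0.0128). Of the 10 genes, it had the smallest adjusted p on both diets over 11 libraries.

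Flt1 (chromosome 5, 147561604 to 147726011, minus strand) had 173, 83.5 and 47.2 CPM in WT CD and 51.9, 37.1 and 49.5 in HoipA-KO CD. In HFD pools it had 152, 118 and 111 CPM in WT and 49.0, 39.5 and 56.9 in HoipA-KO. The 2 WT CD libraries of the fit and all WT HFD libraries were above every HoipA-KO library, and WT CD replicate 3 was within the HoipA-KO range. Its log2 fold changes of -1.43 ± 0.29 (SE, adjusted p = 0.00489) for CD and -1.38 ± 0.27 (adjusted p = 0.017) for HFD were close to those of Kdr. Without WT CD replicate 1 the value on CD was -0.82 and still passed the threshold.

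Tek, which encodes the angiopoietin receptor TIE2 (chromosome 4, 94739289 to 94874976, plus strand), showed a smaller difference. It had 62.6, 38.6 and 22.6 CPM in WT CD and 35.8, 24.4 and 32.8 in HoipA-KO CD. With HFD the levels were 76.5, 60.3 and 55.0 CPM in WT and 33.6, 24.7 and 40.7 in HoipA-KO, without overlap. The HFD difference passed the test, at -0.94 ± 0.24 (SE, log2, adjusted p = 0.0392), and the CD difference of -0.67 did not (-1.27 to -0.068, adjusted p = 0.0743). By edgeR, the HFD call was lost over 12 libraries (adjusted p = 0.142) and with library size alone (adjusted p = 0.0653). It was also lost in 6 of 11 cases when 1 library was left out. The CD difference lay near the threshold: it passed without WT CD replicate 2 (-0.97, adjusted p = 0.028) or HoipA-KO HFD replicate 3 (-0.75), with at least 10 counts in every library, with protein-coding genes only, with the replicate block and with DESeq2's Wald test (adjusted p from 0.0353 to 0.0482 in these), and it was -0.28 without WT CD replicate 1. A difference between the diets was not shown, since the interaction of genotype and diet was -0.27 (-1.09 to 0.54, adjusted p = 0.70).

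The VEGF ligands had the lowest estimates of the 10 genes on CD. Vegfa (chromosome 17, 46016993 to 46032369, minus strand) had 186, 75.0 and 72.9 CPM in WT CD and 30.4, 24.8 and 38.6 in HoipA-KO CD. After HFD it had 129, 105 and 80.6 CPM in WT and 40.9, 17.6 and 34.7 in HoipA-KO. All 6 WT libraries were above all 6 HoipA-KO libraries, with the gap running from 40.9 to 72.9 CPM. In the CD comparison Vegfa was 0.246 times as high in HoipA-KO, a log2 fold change of -2.02 ± 0.42 (SE, adjusted p = 0.00523), and in the HFD comparison it was 0.298 times as high (-1.75 ± 0.39, adjusted p = 0.0252). Leaving out WT CD replicate 1 gave -1.23 for CD and leaving out replicate 2 gave -2.53, both past the threshold.

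Vegfb, whose product binds VEGFR1 and not VEGFR2 (chromosome 19, 6982473 to 6987651, minus strand), followed the same course. It had 168, 70.4 and 54.8 CPM in WT CD and 34.8, 24.6 and 41.7 in HoipA-KO CD, and 90.2, 74.4 and 66.5 in WT HFD and 36.3, 30.9 and 38.1 in HoipA-KO HFD. The 2 genotypes did not overlap on either diet. Its log2 fold change was -1.79 ± 0.33 (SE) for CD, at an adjusted p of 0.00292, and -1.12 ± 0.30 for HFD, at an adjusted p of 0.0422. The CD value became -1.03 when WT CD replicate 1 was left out and -2.28 when replicate 2 was, and with library size alone in place of TMM normalization it no longer passed on HFD (-1.02, adjusted p = 0.0519).

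The angiopoietins went apart. Angpt1 (chromosome 15, 42424723 to 42676977, minus strand), which perivascular and stromal cells are known to secrete, had 20.1, 14.7 and 7.52 CPM in WT CD and 8.08, 6.30 and 5.34 in HoipA-KO CD. Fed HFD, the groups had 7.84, 10.5 and 6.16 CPM in WT and 6.72, 4.66 and 4.45 in HoipA-KO, and these groups overlapped. Angpt1 was lower in HoipA-KO CD at a log2 fold change of -1.36 ± 0.29 (SE, adjusted p = 0.00596), whereas the HFD value of -0.62 was not called (-1.21 to -0.028, adjusted p = 0.143). The interaction was 0.74 (-0.13 to 1.62, adjusted p = 0.29), so that a difference between the diets was not shown.

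Angpt2 (chromosome 8, 18690263 to 18741562, minus strand) was the only one of the 10 genes with a higher estimate in HoipA-KO. It had 19.0, 18.5 and 8.09 CPM in WT CD and 18.4, 27.1 and 20.9 in HoipA-KO CD. HFD pools had 18.5, 19.7 and 24.2 CPM in WT and 20.1, 26.1 and 37.8 in HoipA-KO. The groups overlapped on both diets, and the log2 fold change was 0.29 on CD (-0.32 to 0.91, adjusted p = 0.425) and 0.45 on HFD (-0.098 to 0.99, adjusted p = 0.237). Angpt2 overlaps Mcph1 on the opposite strand, and Cdh5 and Angpt1 overlap antisense genes. The library kit keeps the strand, and the strand setting of the counting is not given in the sources used here.

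Ratios of 2 genes within a library do not depend on how libraries are scaled to each other. Ratios of 7 pairs were formed on the log2 scale, without division by length, and the effects of genotype (averaged over the diets) and of diet (averaged over the genotypes) were tested with exact two-sided permutation tests within the other factor, with adjustment over the 14 tests. With 11 libraries there are 200 arrangements and the smallest p is 0.005. Ranges of ratios are given over all 12 libraries, with WT CD replicate 3. The ratio of Angpt2 to Angpt1 was 0.944 to 1.26 in WT CD, 1.88 to 3.93 in WT HFD, 2.27 to 4.31 in HoipA-KO CD and 2.99 to 8.48 in HoipA-KO HFD. It was 1.32 higher on the log2 scale in HoipA-KO (exact p = 0.015, adjusted p = 0.042), that is, 2.49 times as high, with 1.63 on CD and 1.01 on HFD. All HoipA-KO CD libraries were above all WT CD libraries, and on HFD the ranges overlapped. The effect was 1.14 to 1.52 when 1 library was left out. The call was lost in 10 of 11 such cases, with an adjusted p of up to 0.0933 by the permutation test. It was kept only without HoipA-KO HFD replicate 1. The effect of HFD on this ratio was 0.94 (exact p = 0.035, adjusted p = 0.0817).

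Vegfa and Vegfb did not keep their proportion. The ratio of Vegfa to Vegfb was 1.06 to 1.33 in WT CD. The 1.33 was of replicate 3, and the 2 WT CD libraries of the test had 1.11 and 1.06. The ratio was 1.21 to 1.43 in WT HFD, 0.872 to 1.01 in HoipA-KO CD and 0.569 to 1.13 in HoipA-KO HFD. It was 0.45 lower on the log2 scale in HoipA-KO (effect -0.45, exact p = 0.01, adjusted p = 0.035), with -0.22 on CD and -0.69 on HFD. The effect was -0.31 without HoipA-KO HFD replicate 2, and when 1 library was left out the call was kept only without WT CD replicate 2, HoipA-KO HFD replicate 1 or HoipA-KO HFD replicate 3. For the 2 receptors of these ligands, the effect of genotype on the ratio of Flt1 to Kdr was 0.048 (exact p = 0.71, adjusted p = 0.846), and the group ranges overlapped.

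**Figure D3:**
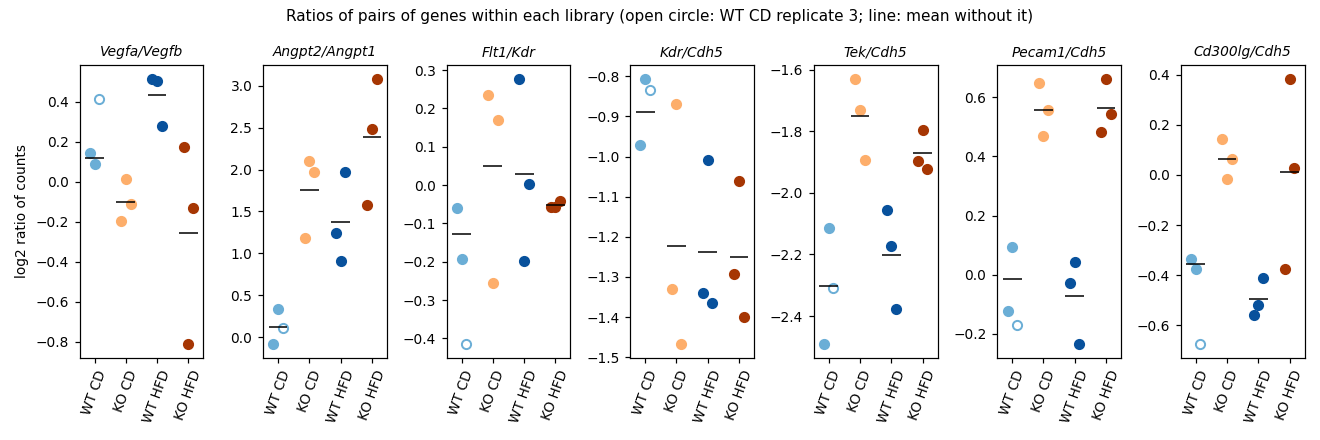
Log2 ratio of the counts of 7 pairs of genes (y axis, 1 panel per pair, each with its own scale) in each library, by group (x axis). Points are libraries, open circles are WT CD replicate 3, and lines are group means without it. Tek, Pecam1 and Cd300lg relative to Cdh5 are higher in both HoipA-KO groups than in both WT groups on average.

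Relative to Cdh5, the other endothelial genes split. The ratio of Pecam1 to Cdh5 was 0.889 to 1.07 in WT CD and 0.85 to 1.03 in WT HFD, and 1.39 to 1.57 in HoipA-KO CD and 1.40 to 1.58 in HoipA-KO HFD, with no overlap between the genotypes. It was 0.61 higher on the log2 scale in HoipA-KO (exact p = 0.005, the smallest possible, adjusted p = 0.0233). Tek to Cdh5 was 0.44 and Cd300lg to Cdh5 0.46 higher on this scale, each with the same p. Kdr to Cdh5 had an effect of -0.17 (adjusted p = 0.455, exact permutation test) and ranges that overlapped. Pecam1, Tek and Cd300lg thus differed between the genotypes by less than Cdh5 did. When 1 library was left out, the 3 effects stayed between 0.346 and 0.658. Only 80 to 120 arrangements then remained and no exact p of these ratios was below 0.01, so that a lost call does not by itself mean a smaller effect. The adjusted p of the 3 effects rose to between 0.0583 and 0.084 without WT CD replicate 1, without any WT HFD library or without any HoipA-KO CD library. It stayed under 0.05 without WT CD replicate 2 or any HoipA-KO HFD library. Genes of macrophages, which include cells that can carry Pecam1, also differed between the genotypes, and all 10 were called higher in HoipA-KO on CD. Their sum was 532 to 890 CPM in WT CD, 2549 to 7782 in WT HFD, 13700 to 17400 in HoipA-KO CD and 9698 to 16330 in HoipA-KO HFD. The part of macrophages in the ratios was not tested. The ratios within WT cannot decide it, since no WT library had a macrophage sum in the range of the HoipA-KO libraries.

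The diet itself was accompanied by few differences in the 10 genes. In WT mice, HFD was compared with CD, and Angpt1 alone was called, where 5.47% of genes were called lower and 9.35% higher (1008 of 2731 calls lower, against 677 of 2785 with library size alone). Angpt1 averaged 17.4 ± 3.84 CPM (SD) in 2 pools of WT CD mice and 8.17 ± 2.20 in 3 pools of WT HFD mice, and its log2 difference was -1.07 ± 0.29 (SE, adjusted p = 0.0367). The call was lost over 12 libraries (-0.79, adjusted p = 0.164), where WT CD replicate 3 had 7.52 CPM, and, when 1 library was left out, without WT CD replicate 1 (-0.81), WT CD replicate 2 (-1.28, where Vegfb was called instead), WT HFD replicate 1 (-1.05), WT HFD replicate 3 (-1.0) or HoipA-KO CD replicate 1 or 2 (-1.07 each). The other 9 genes had log2 differences from -0.62 (Vegfb) to 0.35 (Tek), with confidence intervals that reached from -1.35 to 0.96.

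In HoipA-KO mice none of the 10 genes and none of the 18427 genes tested (0%) differed between the diets by edgeR's quasi-likelihood test, where 415 genes had an unadjusted p under 0.05 and DESeq2 called 7. The differences of the 10 genes ran from -0.33 (Angpt1) to 0.32 (Angpt2), with confidence intervals from -0.92 to 0.87. The interaction of genotype and diet was called in none of the 10 genes, where 3.58% of genes were called with an interaction below 0 (721 genes called in either direction, 3668 without WT CD replicate 1 and between 1 and 4 when any of 7 other libraries was left out), and their estimates ran from -0.27 to 0.74 with intervals from -1.09 to 1.66. At an unadjusted p under 0.05 there were 0 of the 10 genes in either comparison, and DESeq2 called 0 of them. The intervals include interactions as large as many of the genotype differences.

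The lower levels extended to part of a list of other genes of endothelial identity. Of 35 further genes of this kind, 15 were called lower, 1 higher and 19 not called in HoipA-KO on CD. Among all genes tested, 18.8% were called lower and 18.9% higher there. The median log2 fold change of the 35 was -0.84 against -0.06 over all genes tested, and 28 had estimates below 0. On HFD 8 were lower and none higher, where 7.62% of all genes were lower and 4.2% higher, with a median of -0.84 against 0.06. The most abundant were Aqp1, a water channel of capillaries (-1.66 on CD, adjusted p = 0.0164), Adgrf5, an adhesion receptor (-1.33, adjusted p = 0.00702), Ptprb, the phosphatase VE-PTP that acts on TIE2 and VE-cadherin (-1.33, adjusted p = 0.00563), and Eng, a co-receptor of the TGF-beta family, which was not called (0.0066, adjusted p = 0.989). The 1 gene called higher was Calcrl, a receptor for adrenomedullin, which rose by 1.78 on CD (adjusted p = 0.00894 by edgeR). Plvap had an estimate of 0.79 on CD and was called higher only over 12 libraries. Adgrf5 and Ptprb were also called on HFD (-1.29 and -1.67), and Aqp1 was not (-0.88, adjusted p = 0.166). The sum of the list was 1498 to 4694 CPM in WT CD, 2905 to 3789 in WT HFD, 1277 to 2119 in HoipA-KO CD and 1509 to 2353 in HoipA-KO HFD. Over 12 libraries 7 were lower and 2 higher on CD and 1 was lower on HFD, with medians of -0.63 and -0.85, and Aqp1 was no longer called on CD (adjusted p = 0.0503).

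Genes of tip cells and Notch signalling, through which sprouting endothelial cells are selected, were called in both directions. Of 13, 5 were lower and 2 higher on CD (median -0.72), where 18.8% of all genes were lower and 18.9% higher, and 3 were lower and 1 higher on HFD (median -0.53), where the shares were 7.62% and 4.2%. By abundance they were Nid2, a basement membrane protein (-0.41 on CD, not called), Notch1 (-1.16, adjusted p = 0.000525, and -0.86 with an adjusted p of 0.0542 over 12 libraries), the apelin receptor Aplnr (-0.16, not called) and the Notch ligand Jag1 (-0.47, not called). The other genes called lower on CD were Notch4, Nrarp, Dll4 and Esm1, and those on HFD were Notch1, Notch4 and Dll4. Dll4, the Notch ligand of tip cells, was lower on both diets (-2.71 and -2.13, adjusted p = 0.00765 and 0.0401), and Esm1, a tip cell marker, was lower on CD (-3.17, adjusted p = 0.00205), both named after their values were seen. Esm1 had a low mean of 1.46 CPM. Over 12 libraries none of the 13 was called on HFD, where Dll4 had an adjusted p of 0.0783 by edgeR. The genes called higher were Plaur, the urokinase receptor (3.77 on CD and 1.25 on HFD), and Cxcr4 (2.03 on CD), both of which leukocytes also express.

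A list of 12 further genes of the VEGF and angiopoietin pathway shared Tie1 with the endothelial identity list and Flt4 with the lymphatic list. Of the 12, 1 was lower and 3 were higher on CD (median 0.14) and none was called on HFD (median -0.43). These counts, and those of all lists below, stand beside 18.8% lower and 18.9% higher among all genes on CD. On HFD the shares were 7.62% lower and 4.2% higher. A share near these is not a result about a list. Plxnd1 and Nrp2, receptors of semaphorins and, for Nrp2, of VEGF-C, rose by 1.06 and 2.24 on CD, as did the integrin subunit Itga5 (2.41). Pgf, which encodes placental growth factor, a ligand of VEGFR1, was lower (-2.46, adjusted p = 0.0206). Itgb1 (0.59) and Nrp1 (0.78), a co-receptor of VEGFR2, were not called. In WT mice Plxnd1, Nrp2 and Itga5 were also called higher on HFD than on CD. Other angiogenic ligands were called lower for Fgf2 and Apln and higher for Cxcl12 and Hgf among 10 on CD (median -0.07), and lower for Lep, Adm and Apln on HFD (median -0.81). Of these, Lep encodes leptin and had a log2 fold change of -2.13 on HFD (adjusted p = 0.0269) and -0.53 on CD (adjusted p = 0.442).

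**Figure D4:**
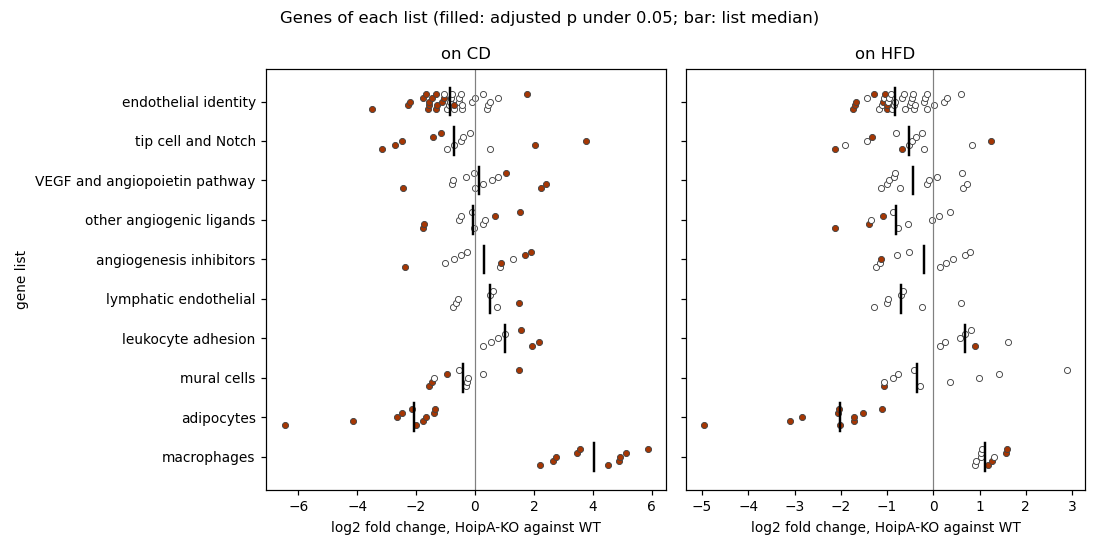
Log2 fold change of HoipA-KO against WT (x axis) for the genes of 10 lists (y axis) on CD and HFD over 11 libraries, without the 10 genes themselves. Each point is a gene, filled where the adjusted p is under 0.05, and bars are list medians. The medians of the endothelial identity genes are -0.84 on both diets, those of the adipocyte genes near -2 and those of the macrophage genes 4.04 on CD and 1.11 on HFD.

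Inhibitors of angiogenesis were called higher for Serpinf1, which encodes PEDF, Col18a1, the source of endostatin, and Thbs2 on CD (1.89, 0.89 and 1.71), and lower for Col4a3, among 10 genes with a median of 0.30. The counts of this paragraph stand beside 18.9% higher and 18.8% lower among all genes tested on CD, and 4.2% and 7.62% on HFD. On HFD Vash1 was lower and none was higher (median -0.20). Timp3 and Thbs1, also among the most abundant of the 10, were not called (-1.01 and -0.26 on CD, -1.16 and -1.24 on HFD). Estimates were below 0 for 5 of the 10 inhibitors on each diet. Genes of leukocyte adhesion were called higher for Vcam1, Icam1 and Sele on CD (1.58, 1.93 and 2.18) and for Icam1 on HFD (0.89, adjusted p = 0.00999 by edgeR). None of the 7 was called lower, 4 on CD and 6 on HFD were not called, and the medians were 1.04 and 0.69. Sele, at a mean of 0.576 CPM, was not called over 12 libraries (1.36, adjusted p = 0.0924). Leukocytes also express Icam1, and macrophages can express Vcam1. The macrophage sums given above were higher in HoipA-KO CD than in WT CD, and their part in these values was not tested. Of 7 lymphatic endothelial genes, 1 was called, Pdpn, which was higher on CD (1.5), with medians of 0.52 and -0.71, the first of which was -0.62 over 12 libraries. Of 10 mural cell genes, Rgs5, Abcc9 and Higd1b of pericytes were lower and Pdgfrb was higher on CD (median -0.42, with Abcc9 not called over 12 libraries, adjusted p = 0.0574), and Cspg4 was lower on HFD (median -0.35). Acta2, Myh11 and Tagln of smooth muscle were not called. Of 10 targets of hypoxia signalling, Bnip3 was lower on both diets (-2.29 and -1.80), and Pgk1, P4ha1, Slc2a1 and Car9 were higher on CD, with medians of -0.29 and 0.35, while Ldha and Ndrg1 were not called.

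Genes of other cell types moved between the same groups. All 10 adipocyte genes were lower in HoipA-KO on both diets (medians -2.08 and -2.03), and their sum was 26790, 12330 and 8391 CPM in the 3 WT CD pools by number, 9505 to 12680 in WT HFD, 2352 to 3558 in HoipA-KO CD and 1951 to 3096 in HoipA-KO HFD. WT CD replicate 1, with the highest adipocyte sum of the 12 libraries, also had the highest value of its group for all 10 endothelial and angiogenic genes. The part of the adipocyte RNA in their values was not tested. The macrophage genes were called higher for 10 of 10 on CD and for 4, C1qa, C1qb, Cd68 and Lgals3, on HFD (medians 4.04 and 1.11). Of 8 progenitor genes Dcn, Col1a1 and Pdgfra were higher on CD and Cd55 was lower on HFD (medians 0.38 and 0.087), and of 6 mesothelium genes none was called (0.95 and -0.15). Of 6 proliferation genes 6 were higher on CD and Birc5 on HFD (3.50 and 0.74). Of 9 epididymis genes tested Crisp1 was lower on CD, and all 8 testis germ cell genes were lower on CD and none was called on HFD. Over all 12 libraries, the HFD calls in these lists came down to 1 endothelial identity gene, 8 adipocyte genes, 1 progenitor gene and 1 hypoxia target, and on CD 2 proliferation and 9 adipocyte genes were called.

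Levels of most of the 10 genes went together across libraries, given here as a description over 11 libraries that share their groups and pools. Pearson's r of log2(CPM + 1) was 0.955 between Cdh5 and Kdr and 0.982 between Cdh5 and Flt1. Among 9861 genes with a mean of at least 10 CPM, the 5 most like Cdh5 were Sema6a, Hspa12b, Afap1l1, Nudt18 and Erg, with r from 0.991 to 0.988. Those most like Vegfa were Gstz1, Gm10687, Dbi, Gpc4 and Proca1 (0.995 to 0.991), and those most like Cd300lg were Tmem204, Polg, Kank3, Hrct1 and Lims2 (0.967 to 0.96). Angpt2 had no gene as close, and the first 5 were Ccnk, Rexo4, Dpy19l3, Txlna and Tmem267 (0.883 to 0.80).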

How the data were processed

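Bulk poly(A) RNA sequencing of GWAT was deposited as estimated counts. Per the labels and methods, the authors trimmed reads with Trim Galore 0.6.7, aligned them with STAR 2.7.10a and estimated counts per gene with Salmon 1.5.2. The labels give the mouse build GRCm38, whereas the methods name a human assembly, and the table holds mouse gene identifiers. These estimated counts carry no normalization and were rounded here. The deposited comparison tables hold the authors' log2 fold changes and p-values from DESeq2 and were not used. Counts were fitted for the 4 groups together over 11 libraries, as in the authors' comparisons, with filterByExpr, TMM and edgeR's quasi-likelihood test (edgeR 4.0.16, limma 3.58.1, DESeq2 1.42.0, R 4.3.3), Benjamini-Hochberg adjustment and a threshold of 0.05. The table also held 59 rows without a symbol. CPM values are normalized by TMM over all 12 libraries, so that group means and fitted log2 fold changes differ slightly. Ratios used counts + 0.5. Gene length is the union of exons in GENCODE's annotation of GRCm38. The biological coefficient of variation was 0.394 over 11 libraries and 0.514 over 12. The fit was also run on simulated data with known changes in the CD comparison only. The simulated spread was set lower than that of these data, so that the run does not show how well changes are found in them.

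The 10 genes, the lists and the ratios were chosen with earlier results of these data known. All 10 genes are given. Of the lists, the gene called against the list's direction is named, and in most cases genes making up counts of 5 or fewer. The genes with the highest mean CPM are named for endothelial identity, tip cells and Notch, the VEGF and angiopoietin pathway, inhibitors, mural cells and hypoxia targets. In the other lists the most abundant genes are not all named. Alternatives were all 12 libraries, DESeq2 size factors, library size alone, no filter, at least 10 counts in every library, protein-coding genes only, a replicate block, DESeq2's Wald test, only the 2 groups compared, and leaving out each library. P-values measure the spread between pools.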

Additional observations from a re-analysis of the deposited data

Results flagged for a closer look

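In WT CD replicate 3, a library outside the main comparisons, the 8 testis germ cell genes summed to 10840 CPM, above the level of every other library (445 CPM in WT CD replicate 2 and at most 19.2 in the others). The 10 endothelial and angiogenic genes all had their lowest WT CD value in this library.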

How the results depend on the processing

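On CD the 10 genes gave 6 calls, 5 over all 12 libraries, 8 with at least 10 counts in every library, protein-coding genes only, the replicate block or DESeq2's Wald test, and 5 to 9 when 1 library was left out. On HFD the 6 calls became 0 over all 12 libraries, 4 with library size alone, 7 with only the 2 groups compared, and 0 to 7 when 1 library was left out. For HFD against CD in WT the 1 call became 0 over all 12 libraries, with the replicate block and with only the 2 groups compared, and was 0 to 1 when 1 library was left out, with Vegfb and not Angpt1 called without WT CD replicate 2. For diet in HoipA-KO and the interaction, 0 of the 10 genes were called under every alternative run. Over all genes the calls ranged from 4208 (2 groups) to 8160 (DESeq2) against 6947 on CD, from 279 (without WT HFD replicate 1) to 4410 (DESeq2) against 2179 on HFD, with 503 over 12 libraries, and from 0 (2 groups) to 5985 (without WT CD replicate 1) against 2731 for diet in WT, with 4551 by DESeq2 and 1502 under the block. The interaction had 721 calls, 2350 with DESeq2, 377 under the block, and 1 to 3668 when 1 library was left out. The median log2 fold change of all genes on CD was -0.06, and -0.21 over 12 libraries. The cause of these changes was not tested, beyond a larger biological coefficient of variation with WT CD replicate 3.

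Of the ratios, the effect of diet on Angpt2 to Angpt1 passed over all 12 libraries (0.942, adjusted p = 0.0467, exact permutation test). When 1 library was left out, leaving 80 to 120 arrangements, effects of genotype were 1.14 to 1.52 for Angpt2 to Angpt1, -0.56 to -0.314 for Vegfa to Vegfb, -0.00817 to 0.13 for Flt1 to Kdr, 0.346 to 0.535 for Tek to Cdh5, 0.551 to 0.658 for Pecam1 to Cdh5 and 0.37 to 0.559 for Cd300lg to Cdh5. Effects of diet were 0.764 to 1.14, -0.0302 to 0.216, -0.0499 to 0.0829, -0.104 to 0.0852, -0.0808 to 0.0266 and -0.189 to 0.000528 in the same order. Those of Kdr to Cdh5 kept their sign and stayed above the threshold.

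Whether replicate numbers pair the libraries was not settled. Deviations from group means correlated with r from -0.323 to 0.572 in 15 pairs of libraries with the same number, 6 of them over 0.1, and from -0.567 to 0.467 in 30 other pairs. Between HoipA-KO CD and HoipA-KO HFD, r was 0.206, 0.572 and 0.385 for the same number and -0.567 to 0.266 otherwise. In the other pairs of groups it was -0.323 to 0.437 for the same number. Deviations sum to 0 within a group, so that the pairs are not independent. With the replicate number as a block 8 of the 10 genes were called on CD, 6 on HFD and 0 for diet in WT, where Angpt1 had -0.921 (adjusted p = 0.0554 by edgeR).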
